A study of Mus musculus with 15 samples.

Results

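Interferon regulatory factors (IRFs) are transcription factors of the innate immune response, and 8 of their genes, Irf1, Irf2, Irf3, Irf4, Irf5, Irf7, Irf8 and Irf9, were followed across 5 groups of mouse bone marrow cells. The genes were chosen by their family name and not by a measured value, though with earlier results of these data known, and each symbol matched 1 of 56979 gene identifiers in the deposited table, so they make up 8 of 56979. The authors sequenced polyadenylated RNA from wild type cells, with 3 libraries in each group. The bone marrow-derived macrophages (BMDM, macrophages grown from marrow) formed the groups LPS_NZM, given LPS and NZM, LPS, given LPS without NZM, and Control, given vehicle. LPS is bacterial lipopolysaccharide, which macrophages sense through Toll-like receptor signalling. The BMSC, an abbreviation that the labels leave unexplained, formed the groups Aged_NZM, given H2HO and NZM, and Aged, given H2HO without NZM. NZM followed the pretreatment, so LPS and H2HO were also present in the history of the libraries that NZM is compared with. The labels explain neither NZM nor H2HO, and strain, age, dose and time are not given in them. No groups given NZM without LPS or H2HO, and no BMSC spared H2HO, were analysed here.

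IRF proteins share a DNA-binding domain that recognises repeats of the letters GAAA, as found in interferon-stimulated response elements. IRF3 and IRF7 are activated by the kinases TBK1 and IKK-epsilon and switch on type I interferon genes, and IRF9 is the DNA-binding part of the complex ISGF3, which also holds STAT2 and carries the interferon signal to the nucleus. IRF1 activates many interferon gamma responsive genes and IRF2 can occupy the same elements, whereas IRF5 works with MyD88 in inflammatory cytokine induction, IRF8 guides macrophage and dendritic cell development together with PU.1, and IRF4 is linked to alternative macrophage activation.

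Values are TPM, a length-corrected share of each library's transcripts, so the 15 libraries sum to the same total and their sequencing depth is unknown. Since the labels do not tell whether replicates are separate animals or cultures, p-values reflect only the spread between libraries, which may be technical. Differences were tested with limma on log2(TPM + 1) over all genes that reached 1 TPM in at least 3 libraries of a fit, and a gene was called at an adjusted p (Benjamini-Hochberg) under 0.05. Because a few abundant transcripts can shift all other shares, every comparison was repeated with each library centred on its median gene. The median change of all tested genes as deposited was -0.48 in LPS against Control, 0.40 in LPS_NZM against LPS, -0.07 in LPS_NZM against Control and -0.18 in Aged_NZM against Aged. The share of called genes that were higher was correspondingly 18.8%, 78.2%, 39.0% and 30.7% as deposited, and 55.7%, 45.7%, 53.1% and 46.8% after centring. The 11 macrophage markers summed to between 25653 and 34998 TPM in the BMDM libraries and to between 107 and 131 TPM in the BMSC libraries, where Adgre1 (the F4/80 antigen) did not exceed 0.03 TPM. The 9 stromal markers summed to between 2975 and 4056 TPM in the BMDM libraries, so these also held transcripts typical of stromal cells. In BMSC that sum was 1549 to 1660 TPM in Aged and 5273 to 5413 TPM in Aged_NZM. Col1a1, Col1a2 and Acta2 made up most of the BMDM sum. Other stromal markers were lower in BMDM, such as Pdgfra (6.01 TPM in Control, 91.4 TPM in Aged) and Cxcl12 (55.3 TPM in Control, 128 TPM in Aged). Lepr went the other way (4.81 TPM in Control, 0.603 TPM in Aged). The 10 neutrophil markers summed to 2112 to 2508 TPM in LPS_NZM, 2431 to 2664 TPM in LPS and 1524 to 1715 TPM in Control. The 7 mast cell and basophil markers ranged from 13.3 to 528 TPM among the Control libraries. In such bulk RNA, fewer cells of a type and less RNA per cell cannot be told apart.

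The stretch of 250 bases before the annotated start is shown for 5 of the genes, because Irf7 and Irf4 had the largest changes below and because the windows of Irf1, Irf2 and Irf8 hold letters typical of interferon or NF-kB regulated promoters. Sequences are from RefSeq on build GRCm38.p6, whereas the deposited values were made on GRCm39. They are written 5′ to 3′ in the direction of transcription, with matches in capitals. The Irf1 window is chr11:53769764-53770013 on the plus strand, Irf2 is chr8:46739495-46739744 on the plus strand, Irf4 is chr13:30748983-30749232 on the plus strand, Irf7 is chr7:141266425-141266674 on the minus strand, and Irf8 is chr8:120736108-120736357 on the plus strand.
Irf1: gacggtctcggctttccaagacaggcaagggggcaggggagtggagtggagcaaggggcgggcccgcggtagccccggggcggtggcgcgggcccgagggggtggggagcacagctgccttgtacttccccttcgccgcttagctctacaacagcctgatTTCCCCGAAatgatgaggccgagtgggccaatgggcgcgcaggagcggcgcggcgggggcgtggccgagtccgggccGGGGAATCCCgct
Irf2: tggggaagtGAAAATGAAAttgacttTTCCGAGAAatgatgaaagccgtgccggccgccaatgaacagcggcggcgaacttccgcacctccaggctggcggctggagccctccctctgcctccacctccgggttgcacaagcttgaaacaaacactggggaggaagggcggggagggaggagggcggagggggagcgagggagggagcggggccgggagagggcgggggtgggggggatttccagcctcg
Irf4: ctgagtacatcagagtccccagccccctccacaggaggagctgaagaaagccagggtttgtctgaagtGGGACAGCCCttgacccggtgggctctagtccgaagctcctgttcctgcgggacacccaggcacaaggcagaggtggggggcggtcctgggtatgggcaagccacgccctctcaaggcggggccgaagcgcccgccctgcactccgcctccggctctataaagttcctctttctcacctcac
Irf7: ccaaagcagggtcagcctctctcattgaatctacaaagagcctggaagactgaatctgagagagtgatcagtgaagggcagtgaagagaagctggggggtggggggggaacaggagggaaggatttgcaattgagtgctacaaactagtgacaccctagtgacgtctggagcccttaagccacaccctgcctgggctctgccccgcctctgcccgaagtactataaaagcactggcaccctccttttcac
Irf8: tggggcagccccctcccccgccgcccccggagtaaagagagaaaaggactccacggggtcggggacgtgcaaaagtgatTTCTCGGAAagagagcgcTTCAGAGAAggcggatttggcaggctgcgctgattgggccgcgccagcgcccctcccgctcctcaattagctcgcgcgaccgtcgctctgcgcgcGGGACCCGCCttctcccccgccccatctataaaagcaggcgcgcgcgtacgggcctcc
The letters searched, on both strands, were GAAA, any 2 bases and GAAA (the core of the interferon-stimulated response element), TTCNNNGAA (the gamma-activated sequence, which STAT dimers bind), and GGGA, any 4 bases and CC (an NF-kB type letter pattern). Among 32851 promoter windows of the same length, 2.98%, 7.02% and 17.6% held them, in that order. Irf2 held the response element core GAAAATGAAA at 241 to 232 bases before its start and the gamma-activated letters TTCCGAGAA at 224 to 216. Irf1 held TTCCCCGAA at 90 to 82 bases before its start. Its NF-kB type match, written above as GGGGAATCCC at 13 to 4, fits the letter pattern only when read on the opposite strand. Irf8 held 2 gamma-activated matches, TTCTCGGAA at 171 to 163 and TTCAGAGAA at 153 to 145, and the NF-kB type letters GGGACCCGCC at 58 to 49. Irf4 held the NF-kB type letters GGGACAGCCC at 182 to 173. No 2 matches overlapped. All 8 genes had at least 1 window in RefSeq, 11 windows in all, of which 4 held a match; the windows of Irf3, Irf5, Irf7 and Irf9, and the second windows of Irf1 and Irf8, held none of these letters. No match says only that the letters are not in that window.

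The 8 genes together took far more of the transcripts in BMDM than in BMSC. Their summed level was 1308 ± 26.5 TPM in LPS_NZM, 2030.1 ± 18.8 TPM in LPS and 1131 ± 4.60 TPM in Control, and 148 ± 1.95 TPM in Aged_NZM and 149 ± 3.79 TPM in Aged (SD, n = 3 each). Irf7 was the most abundant of the genes in all 3 BMDM groups, with 39.5% of the sum in LPS_NZM, 63.2% in LPS and 36.7% in Control, and Irf5 came next, with 26.0%, 12.3% and 28.7% in the same groups. In BMSC the make-up was different: Irf1 (26.2%), Irf3 (24.8%) and Irf9 (18.1%) took the largest shares in Aged_NZM, and Irf3 (33.1%), Irf9 (21.5%) and Irf1 (17.6%) in Aged. Irf5 took 1.28% of the sum in Aged_NZM and 2.36% in Aged. Irf4 and Irf8 were close to 0 in BMSC, at no more than 0.08 TPM and 0.26 TPM in any of the 6 libraries.

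**Figure D1:**
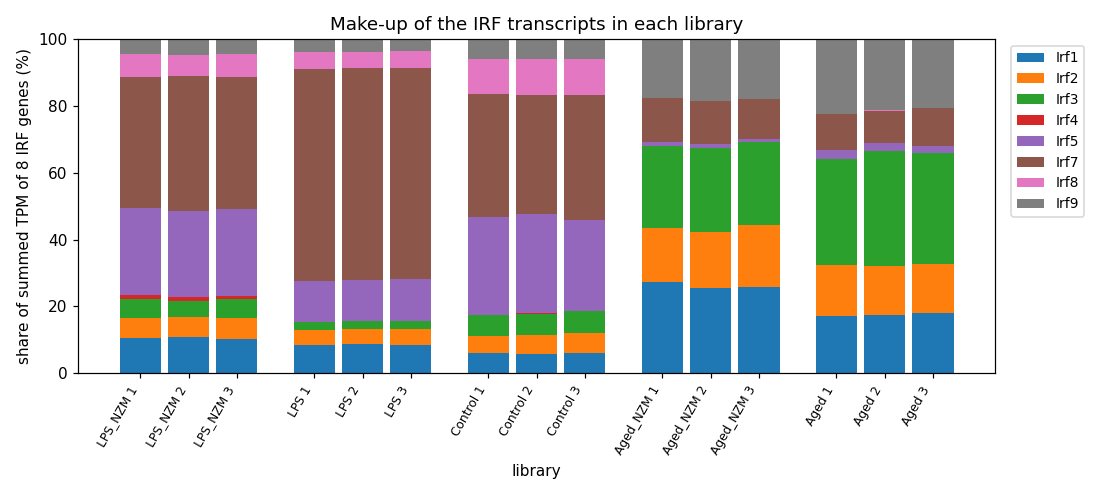
Share of the summed TPM of the 8 IRF genes (y axis, percent) in each of the 15 libraries (x axis), stacked by gene. Irf7 fills 63.2% of the sum on average in LPS, against 36.7% in Control, and Irf1, Irf3 and Irf9 fill most of the BMSC bars.

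The group in which a gene was highest differed within the family. Irf1, Irf2, Irf7 and Irf9 were highest in LPS, Irf3, Irf4 and Irf5 in LPS_NZM, and Irf8 in Control. When the 5 groups were ordered by mean level for each gene, 27 of the 32 neighbouring pairs in that order did not overlap in their 3 libraries, where 60.6% of such pairs did not overlap over all 16696 genes that passed the filter in the 15 libraries. The exceptions were Irf3 between LPS_NZM and Control and between LPS and Aged, Irf4 between Control and LPS and between Aged and Aged_NZM, and Irf5 between LPS_NZM and Control.

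**Figure D2:**
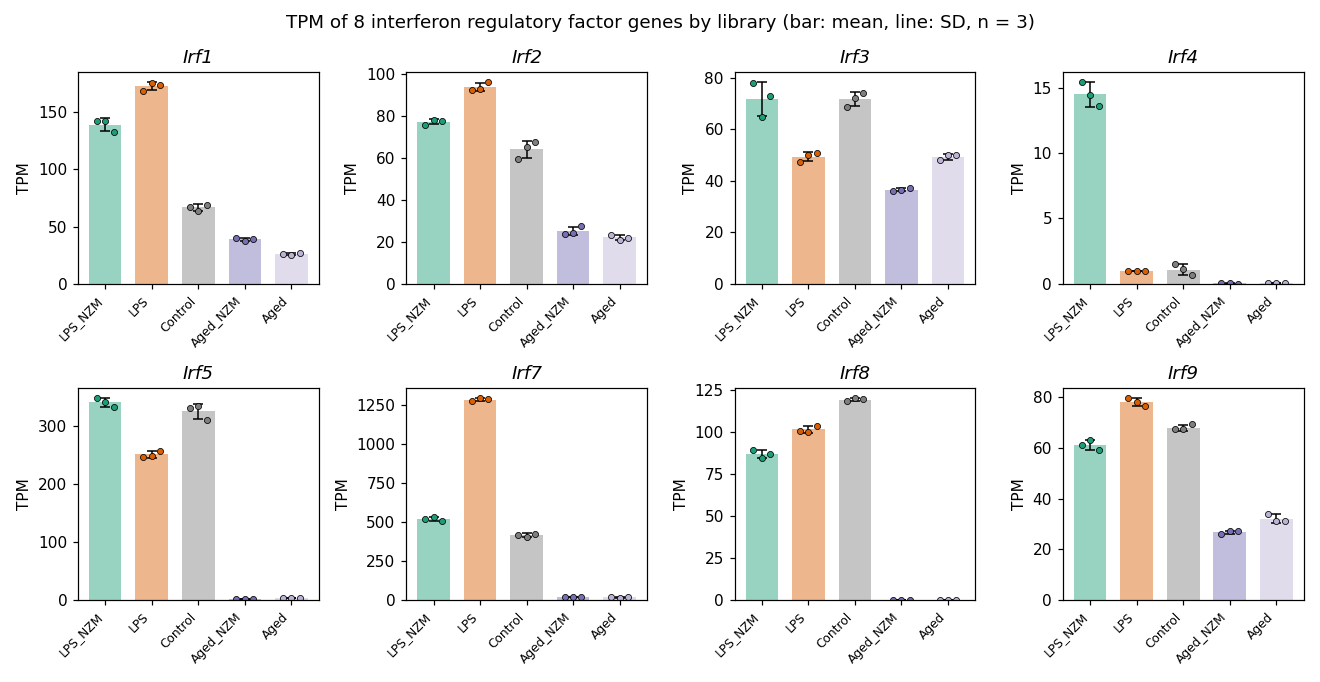
TPM of each IRF gene in every library, 1 panel per gene, with points for libraries and bars for the mean and SD of 3 libraries. Irf7 lies between 1272 and 1290.3 TPM in LPS, above all other groups, and Irf4 lies between 13.6 and 15.4 TPM in LPS_NZM, against at most 1.48 TPM elsewhere.

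LPS against Control shows how the genes stood after exposure to the model stimulus. Irf7, Irf1, Irf2 and Irf9 were higher in LPS on both scales, with Irf7 about 3.09 times and Irf1 about 2.59 times their Control level. Irf3, Irf5 and Irf8 were lower in LPS as deposited, but after median centring Irf5 and Irf8 were called higher and Irf3 stood at 0.02. After quantile normalization, a further alternative, these genes were called lower, at -0.27 for Irf3, -0.58 for Irf5 and -0.18 for Irf8. Irf4 was near 1 TPM in both groups. In all, 7 of the 8 genes were called, 4 higher and 3 lower, where 80.8% of all tested genes were called, 15.2% higher and 65.6% lower. After centring 7 were called, all higher, where 65.5% of all genes were called, 36.5% higher and 29.1% lower.

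Of the factors that drive interferon genes, Irf7 (ENSMUSG00000025498), which is itself interferon inducible, had 1272, 1290.3 and 1286 TPM in LPS, against 418, 403 and 424 TPM in Control. The groups lay far apart, with every LPS library above every Control library (log2 change 1.63, SE 0.03, adjusted p = 1.41e-11). Irf3 (ENSMUSG00000003184), usually expressed constitutively and activated by phosphorylation, had 47.3, 49.9 and 51.0 TPM in LPS, against 68.8, 72.0 and 74.2 TPM in Control. All LPS libraries were lower, with a log2 change of -0.53 (SE 0.06, adjusted p = 2.59e-05) that became 0.02 after centring (adjusted p = 0.811). Irf9 (ENSMUSG00000002325), the DNA-binding subunit of ISGF3, had 79.6, 78.3 and 76.6 TPM in LPS, against 67.5, 67.3 and 69.4 TPM in Control. Its rise was small but without overlap (log2 change 0.20, adjusted p = 0.000485) and was 0.74 after centring.

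Irf1 (ENSMUSG00000018899), the activator of antigen presentation and other interferon gamma responsive genes, had 169, 176 and 174 TPM in LPS, against 67.5, 63.7 and 69.2 TPM in Control (change on the log2 scale 1.36, SE 0.04, adjusted p = 8.59e-10). Irf2 (ENSMUSG00000031627), classically described as its antagonist, had 92.3, 93.2 and 96.4 TPM in LPS, against 59.8, 65.2 and 67.6 TPM in Control (change on the log2 scale 0.54, SE 0.05, adjusted p = 1.55e-06). Both rose without overlap, Irf1 by more than Irf2. The log2 ratio of Irf1 to Irf2 within a library averaged 0.87 in LPS and 0.06 in Control, a difference of 0.81 that no library crossed (two-sided exact permutation test, p = 0.1, the smallest that 3 against 3 libraries allow, and 0.114 after Benjamini-Hochberg adjustment over the 16 ratio comparisons made). The same adjusted value holds wherever an exact p of 0.1 is given below. Apart from the pseudocount, a ratio within a library does not depend on its scaling, and it shows unequal change of the 2 genes.

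Among the factors tied to myeloid cells, Irf5 (ENSMUSG00000029771) had 247, 248 and 257 TPM in LPS, against 331, 333 and 309 TPM in Control. It was lower as deposited (log2 change -0.37, SE 0.03, adjusted p = 3.43e-06) and higher after centring (0.17, adjusted p = 0.00224). Irf8 (ENSMUSG00000041515) had 101, 100.1 and 104 TPM in LPS, against 118, 119.9 and 119.5 TPM in Control, which gave -0.23 as deposited (SE 0.03, adjusted p = 6.62e-05) and 0.32 after centring (adjusted p = 2.15e-05). Both genes fell as a share of all transcripts, by less than the median gene did. Irf4 (ENSMUSG00000021356) had 1.00, 0.97 and 0.94 TPM in LPS, against 1.48, 1.11 and 0.63 TPM in Control. These ranges overlapped, and its log2 change of -0.05 (adjusted p = 0.746) was 0.49 after centring (adjusted p = 0.0123).

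Genes around the IRFs were read from lists of pathway members, and the median change of all tested genes was -0.48 in this comparison. Of all tested genes 15.2% were called higher and 65.6% lower as deposited, and 36.5% and 29.1% after centring. Of 9 genes of the activating kinases and their scaffolds, 7 rose and 2 fell (median 0.68). Ikbke, the gene of IKK-epsilon, averaged 394 ± 7.65 TPM in LPS and 76.5 ± 1.78 TPM in Control, and Tbk1 averaged 112 ± 2.37 TPM in LPS and 69.3 ± 0.864 TPM in Control. The scaffold gene Tank also rose, with a log2 change of 2.02. Of 10 interferon genes only Ifnb1, interferon beta, passed the filter, with 2.69, 2.43 and 1.97 TPM in LPS, against 0.16, 0 and 0 TPM in Control. It reached 1 TPM in the LPS libraries only and so passed through the group in which it was high, for which reason its values are given as a description with no test.

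Of 10 tested interferon receptor, JAK and STAT genes, 8 rose and 2 fell (median 0.81). Stat2, a partner of IRF9 in ISGF3, averaged 257 ± 4.68 TPM in LPS and 102 ± 3.68 TPM in Control. Jak2, a kinase of the interferon gamma receptor, averaged 230.4 ± 5.92 TPM in LPS and 24.7 ± 1.26 TPM in Control. Sensors and adaptors were divided, with 10 higher and 10 lower of 20 as deposited (median 0.13), and 15 higher and 5 lower after centring. Cd14, the LPS co-receptor, Ifih1, the RNA sensor MDA5, and Tlr3 had the largest called changes, 3.41, 3.17 and 2.21. Of 11 tested IRF partners 5 rose and 6 fell as deposited (median -0.28), whereas 7 were higher and 3 lower after centring (median 0.26); among them were Batf2 and Batf, leucine zipper partners of IRF proteins, at 3.65 and 3.27, and Batf3 at -1.26. Of 7 genes of IRF turnover and feedback 3 rose and 3 fell as deposited (median -0.01), and 4 were higher and 1 lower after centring (median 0.54). Spi1, which encodes the PU.1 partner of IRF8 and IRF4, averaged 701 ± 9.67 TPM in LPS and 323 ± 11.4 TPM in Control.

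All 21 listed ISGF3 targets rose in LPS (median 2.76), as did 16 of 17 IRF1 targets (median 2.52) and all 5 IRF5 targets (median 5.11), of which Il23a reached 1 TPM in LPS libraries only. Il23a thus passed the filter through the group in which it was high, so its call carries no weight. Rsad2, which encodes viperin, averaged 2147 ± 18.4 TPM in LPS and 47.8 ± 5.09 TPM in Control, and Usp18, which restrains the interferon receptor, averaged 809 ± 5.65 TPM in LPS and 49.2 ± 3.26 TPM in Control. Of the IRF5 targets Tnf averaged 1421 ± 3.38 TPM in LPS and 40.2 ± 2.53 TPM in Control, and Il12b averaged 192 ± 5.04 TPM in LPS and 0.377 ± 0.601 TPM in Control. The IRF4-linked genes of alternative activation were divided, with 6 higher and 5 lower of 15 as deposited (median 0.32) and 10 higher and 5 lower after centring, Ccl22 at 5.24 and the lipid regulator Pparg at -3.21. Control replicate 3 was higher than the other Control libraries in several of these genes, such as Cxcl10 (7.96, 11.2 and 38.3 TPM in Control) and Nos2 (0.12, 0.17 and 4.27 TPM in Control). Without that library the same counts held for the ISGF3, IRF1 and IRF5 target lists.

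**Figure D3:**
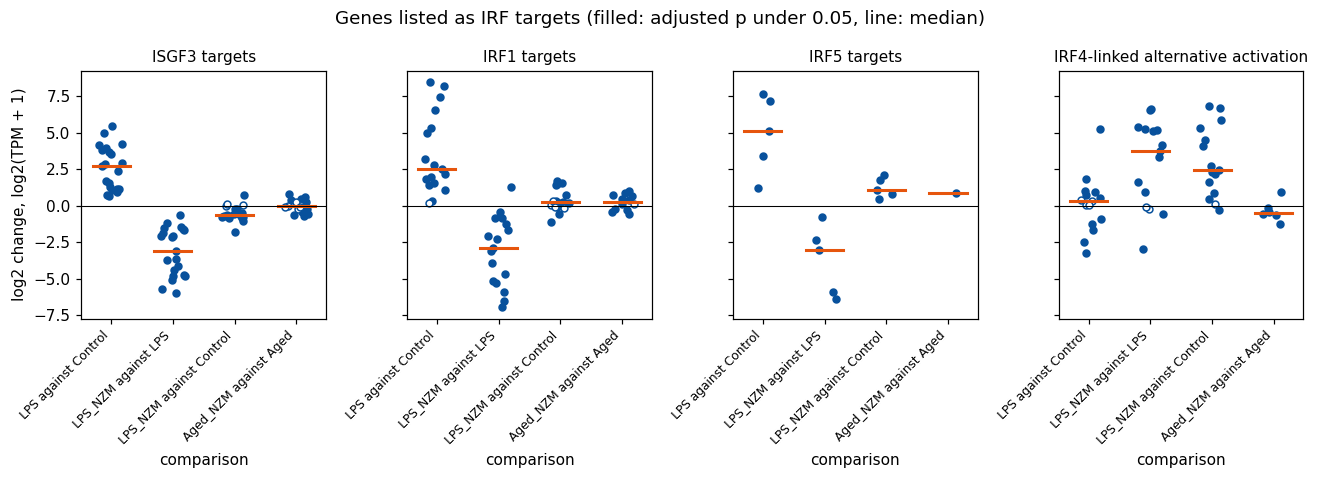
log2 change on the log2(TPM + 1) scale (y axis) of each tested gene of 4 target lists in the 4 comparisons (x axis). Filled points passed an adjusted p under 0.05 and lines are medians; the ISGF3 targets have a median of 2.76 in LPS against Control and -3.06 in LPS_NZM against LPS.

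LPS_NZM against LPS shows how the genes stood when NZM was added to LPS. The largest change was a rise of Irf4, about 14.9 times its LPS level, and the next largest was a fall of Irf7 to about 0.403 of its LPS level. Irf1, Irf2, Irf8 and Irf9 were also lower in LPS_NZM on both scales. Irf3 and Irf5 were higher as deposited, but after centring Irf3 stood at 0.06 and Irf5 at -0.03, neither called. After quantile normalization both were called higher, at 0.26 for Irf3 and 0.55 for Irf5. All 8 genes were called, 3 higher and 5 lower, where 77.3% of all tested genes were called, 60.4% higher and 16.9% lower. After centring 6 were called, 1 higher and 5 lower, where 65.1% of all genes were called, 29.8% higher and 35.3% lower.

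Irf4 had 15.4, 14.5 and 13.6 TPM in LPS_NZM, against 1.00, 0.97 and 0.94 TPM in LPS. Every LPS_NZM library stood more than 10 TPM above every LPS library (log2 change 2.97, SE 0.14, adjusted p = 2.5e-08, and 2.51 after centring). The gene passed the filter with 6 of the 9 BMDM libraries at 1 TPM or more, which included all 3 LPS_NZM libraries. Its fold on the log2(TPM + 1) scale understates its TPM ratio, since the added 1 weighs more on low levels.

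Irf4 is also expressed by B cells, plasma cells and dendritic cells, whose markers were therefore read beside it. The 7 B cell markers summed to 31.9 to 36.4 TPM in LPS_NZM, 11.6 to 14.8 TPM in LPS and 26.4 to 27.8 TPM in Control. The 7 conventional dendritic cell markers summed to 68.7 to 72.7 TPM in LPS_NZM, 47.0 to 49.6 TPM in LPS and 25.5 to 28.5 TPM in Control. Of the 3 that were tested, Itgax (CD11c), which macrophages share, averaged 62.9 TPM in LPS_NZM, 23.9 TPM in LPS and 22.8 TPM in Control, and Zbtb46, a transcription factor of conventional dendritic cells, averaged 4.93 TPM in LPS_NZM, 1.43 TPM in LPS and 1.98 TPM in Control. Both were called higher in LPS_NZM than in LPS, with log2 changes of 1.36 and 1.29. The third, the chemokine receptor gene Ccr7, went the other way, at 1.74 TPM in LPS_NZM, 21.7 TPM in LPS and 1.46 TPM in Control. Flt3, Clec9a, Xcr1 and Cd209a stayed under 1 TPM on average in all 3 groups. The 6 plasma cell markers summed to 505 to 525 TPM in LPS_NZM, 579.6 to 598 TPM in LPS and 491 to 518 TPM in Control. Of the 4 tested, Sdc1 (88.3 TPM in LPS_NZM, 233 TPM in LPS) and Prdm1 (12.4 TPM in LPS_NZM, 21.3 TPM in LPS) were called lower with NZM and Xbp1 (406 TPM in LPS_NZM, 316 TPM in LPS) higher, and Jchain, at 7.39 TPM in LPS_NZM and 17.0 TPM in LPS, was not called. Mzb1 and Tnfrsf17 averaged under 1 TPM in each group. The part of these cells in the Irf4 level was not tested.

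Irf7 had 519, 529.5 and 503 TPM in LPS_NZM, against 1272, 1290.3 and 1286 TPM in LPS, so that the LPS_NZM libraries lay below all LPS libraries (log2 change -1.31, SE 0.03, adjusted p = 6.34e-11). Irf9 had 61.2, 63.1 and 59.1 TPM in LPS_NZM, against 79.6, 78.3 and 76.6 TPM in LPS (change on the log2 scale -0.35, SE 0.04, adjusted p = 7.54e-06). Irf3 had 77.9, 64.9 and 73.0 TPM in LPS_NZM, against 47.3, 49.9 and 51.0 TPM in LPS, which was higher as deposited (log2 change 0.53, adjusted p = 2.74e-05) and 0.06 after centring (adjusted p = 0.406). Irf7 and Irf9 were thus lower with NZM on either scale, and the rise of Irf3 was not called after centring. The log2 ratio of Irf7 to Irf3 averaged 2.83 in LPS_NZM and 4.67 in LPS, a difference of -1.84 without overlap (two-sided exact permutation p = 0.1).

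Plasmacytoid dendritic cells are rich in IRF7 and IRF8, and their 6 markers summed to 486 to 503 TPM in LPS_NZM, 749 to 791 TPM in LPS and 440 to 499 TPM in Control, so that the sum moved with Irf7. Bst2, which is also interferon inducible in other cells, made up most of it, at 460 ± 9.83 TPM in LPS_NZM, 706 ± 17.4 TPM in LPS and 431 ± 28.3 TPM in Control. Of the 5 tested markers 3 were called lower in LPS_NZM than in LPS, where 16.9% of all tested genes were called lower. In LPS against Control 4 were called higher, where 15.2% of all tested genes were. Ccr9 reached 1 TPM in the LPS libraries only (1.21 to 1.79 TPM), and so passed the filter through the group in which it was high. The calls of Ccr9 thus carry no weight in either count. Siglech, a defining surface receptor of these cells in mice, ranged over 0.53 to 0.68 TPM in LPS_NZM, 0.48 to 11.1 TPM in LPS and 0.64 to 13.03 TPM in Control, and was called in neither comparison, and Klk1 was at 0 throughout. The part of these cells in the levels of Irf7 and Irf8 was not tested.

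Irf1 had 142, 143 and 133 TPM in LPS_NZM, against 169, 176 and 174 TPM in LPS (change on the log2 scale -0.31, SE 0.04, adjusted p = 6.14e-05). Irf2 had 76.0, 78.4 and 77.6 TPM in LPS_NZM, against 92.3, 93.2 and 96.4 TPM in LPS (change on the log2 scale -0.28, SE 0.05, adjusted p = 0.000265). Both fell without overlap and by nearly the same amount. Their log2 ratio averaged 0.84 in LPS_NZM and 0.87 in LPS, and the libraries overlapped (difference -0.03, two-sided exact permutation p = 0.5).

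Irf5 had 347, 339.7 and 333 TPM in LPS_NZM, against 247, 248 and 257 TPM in LPS, with a log2 change of 0.44 as deposited (SE 0.03, adjusted p = 9.94e-07) and -0.03 after centring (adjusted p = 0.578). Irf8 had 89.4, 84.4 and 86.9 TPM in LPS_NZM, against 101, 100.1 and 104 TPM in LPS (change on the log2 scale -0.22, SE 0.03, adjusted p = 9.36e-05, and -0.69 after centring). Irf8 was lower in every LPS_NZM library, and Irf5 was higher in every one as deposited. The log2 ratio of Irf4 to Irf5 averaged -4.46 in LPS_NZM and -7.00 in LPS, a difference of 2.53, and that of Irf4 to Irf8 averaged -2.51 in LPS_NZM and -5.70 in LPS, a difference of 3.20. Neither ratio overlapped between the groups (two-sided exact permutation p = 0.1 for each). The 11 macrophage markers summed to 29332 to 29753 TPM in LPS_NZM and 25653 to 25835 TPM in LPS, and Lyz2 made up most of the sum. Of these markers 7 were called higher and 3 lower, where 60.4% of all tested genes were called higher and 16.9% lower. After centring 6 were higher and 5 lower, where 29.8% and 35.3% of all genes were. Cd14 went against the sum, at 101 TPM in LPS_NZM and 2396 TPM in LPS. The part of macrophage content in the levels of Irf5 and Irf8 was not tested.

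**Figure D4:**
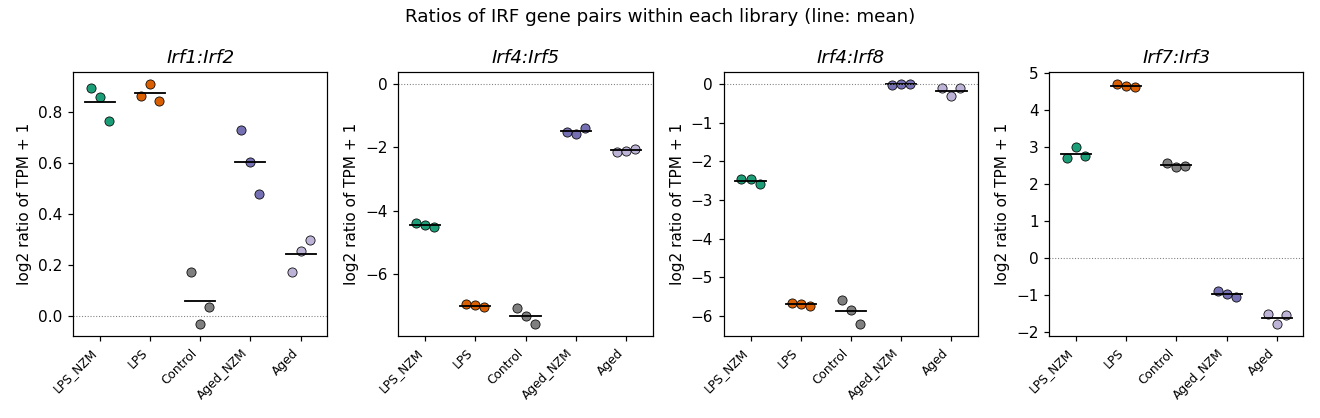
log2 ratio, from TPM + 1, of 4 pairs of IRF genes within each library (y axis) by group (x axis), with points for libraries and bars for the mean of 3. Irf7 to Irf3 averages 4.67 in LPS, against 2.52 in Control, and Irf4 to Irf8 averages -2.51 in LPS_NZM, against -5.70 in LPS.

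Targets of ISGF3, IRF1 and IRF5 fell together, in a comparison where the median of all tested genes was 0.40. Of all tested genes 60.4% were called higher and 16.9% lower as deposited, and 29.8% and 35.3% after centring. All 21 ISGF3 targets fell (median -3.06), as did 16 of 17 IRF1 targets (median -2.89) and all 5 IRF5 targets (median -2.99). Of the IRF5 targets Il23a passed the filter through the LPS libraries only, so its call carries no weight here either. Rsad2 averaged 33.0 ± 3.06 TPM in LPS_NZM and 2147 ± 18.4 TPM in LPS, Cxcl10, a chemokine that attracts T cells, averaged 52.2 ± 10.6 TPM in LPS_NZM and 4872 ± 88.9 TPM in LPS, and Il12b averaged 1.28 ± 0.266 TPM in LPS_NZM and 192 ± 5.04 TPM in LPS. The IRF1 target that rose was Ciita, the master regulator of MHC class II genes, which was named after its value was seen (log2 change 1.29).

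Of the IRF4-linked genes of alternative activation, 11 of 15 rose and 2 fell as deposited (median 3.73), where 60.4% of all tested genes were called higher. After centring 11 were higher and 3 lower (median 3.27), where 29.8% of all genes were called higher. Arg1, which encodes arginase, averaged 2959 ± 39.0 TPM in LPS_NZM and 28.2 ± 2.69 TPM in LPS. Retnla averaged 165 ± 9.63 TPM in LPS_NZM and 0.783 ± 0.276 TPM in LPS, and Egr2, a transcription factor of that programme, averaged 216 ± 6.58 TPM in LPS_NZM and 4.01 ± 0.231 TPM in LPS. Retnla could pass the filter only with the LPS_NZM libraries, in which it was high, so its call carries no weight. The members that fell as deposited were Ccl22 and Il4ra, named after their values were seen. Both are attributed to alternative activation but were also higher in LPS than in Control.

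Kinases and scaffolds fell in 7 of 9 cases and rose in 2 (median -1.12). Ikbke averaged 125 ± 2.85 TPM in LPS_NZM and 394 ± 7.65 TPM in LPS, and Tbk1 averaged 51.0 ± 4.31 TPM in LPS_NZM and 112 ± 2.37 TPM in LPS. Ifnb1 had 0.15, 0 and 0.47 TPM in LPS_NZM, against 2.69, 2.43 and 1.97 TPM in LPS, again a description with no test. Receptor, JAK and STAT genes fell in 7 of 10 cases and rose in 2 (median -0.59), with Stat2 at 58.8 ± 0.674 TPM in LPS_NZM and 257 ± 4.68 TPM in LPS. Sensors and adaptors fell in 10 of 20 cases and rose in 7 as deposited (median -0.28), and 14 were lower and 6 higher after centring (median -0.74). Of 11 tested partners 5 rose and 4 fell as deposited (median 0.13), whereas 2 were higher and 7 lower after centring (median -0.33), and the BATF family parted: Batf3 averaged 32.2 ± 1.59 TPM in LPS_NZM and 0.150 ± 0.141 TPM in LPS, whereas Batf averaged 22.5 ± 1.07 TPM in LPS_NZM and 87.4 ± 5.81 TPM in LPS. Of the 7 turnover and feedback genes 5 rose and 2 fell as deposited (median 0.73), where 60.4% of all tested genes were called higher. After centring 4 were higher and 2 lower (median 0.27). The largest change in this list was that of Usp18, at 56.6 ± 2.10 TPM in LPS_NZM and 809 ± 5.65 TPM in LPS.

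LPS_NZM against Control shows where the genes stood with both agents relative to vehicle. Irf4 was about 13.5 times and Irf1 about 2.08 times its Control level, Irf7 and Irf2 were slightly higher, and Irf8 was lower. Irf9 was lower as deposited and not called after centring, and Irf5 was not called as deposited and called higher after centring. Irf3 was not called on either scale. In all, 6 of the 8 genes were called, 4 higher and 2 lower, where 47.7% of all tested genes were called, 18.6% higher and 29.1% lower. After centring 6 were called, 5 higher and 1 lower, where 47.0% of all genes were called, 24.9% higher and 22.0% lower.

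Irf4 had 15.4, 14.5 and 13.6 TPM in LPS_NZM, against 1.48, 1.11 and 0.63 TPM in Control, with no overlap (change on the log2 scale 2.92, SE 0.14, adjusted p = 1.47e-07). Irf1 had 142, 143 and 133 TPM in LPS_NZM, against 67.5, 63.7 and 69.2 TPM in Control (change on the log2 scale 1.05, SE 0.04, adjusted p = 3.01e-08). Irf7 had 519, 529.5 and 503 TPM in LPS_NZM, against 418, 403 and 424 TPM in Control, which is 1.25 times as high (log2 change 0.32, SE 0.03, adjusted p = 1.09e-05). All 3 genes were higher than Control in every library, and Irf7 had the smallest change of them. Irf2 was 77.3 ± 1.18 TPM in LPS_NZM and 64.2 ± 3.99 TPM in Control (change on the log2 scale 0.27, adjusted p = 0.000898), and it too did not overlap.

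Irf8 averaged 86.9 ± 2.50 TPM in LPS_NZM and 119 ± 0.802 TPM in Control, lower in every library and on both scales (log2 change -0.45, SE 0.03, adjusted p = 1.84e-06, and -0.37 after centring). Irf9 averaged 61.2 ± 2.01 TPM in LPS_NZM and 68.1 ± 1.17 TPM in Control (change on the log2 scale -0.15, adjusted p = 0.00575), and after centring it was -0.07 (adjusted p = 0.197). Irf5 averaged 339.8 ± 7.21 TPM in LPS_NZM and 324 ± 13.2 TPM in Control, with overlapping libraries (log2 change 0.07, adjusted p = 0.139) and 0.15 after centring (adjusted p = 0.00875). Irf3 averaged 71.9 ± 6.54 TPM in LPS_NZM and 71.7 ± 2.71 TPM in Control, also overlapping (log2 change 0.00, SE 0.06, adjusted p = 0.988). The ratios of Irf1 to Irf2 and of Irf7 to Irf3 were higher than in Control by 0.78 and 0.31 on the log2 scale, without overlap (two-sided exact permutation p = 0.1 for each).

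The target lists did not follow a single direction here, in a comparison where the median of all tested genes was -0.07. Of all tested genes 18.6% were called higher and 29.1% lower as deposited. Of 21 ISGF3 targets 17 were lower than Control and 1 was higher (median -0.65), with Ifit3, an antiviral RNA-binding protein gene, at 67.0 ± 1.87 TPM in LPS_NZM and 239 ± 11.6 TPM in Control. Stat2 was lower as well, at 58.8 ± 0.674 TPM in LPS_NZM and 102 ± 3.68 TPM in Control. Of 17 IRF1 targets 10 were higher and 3 lower (median 0.25). Of 5 IRF5 targets all were higher (median 1.08), although Il23a stayed under 1 TPM in every library of both groups. Of 15 IRF4-linked genes 13 were higher and 1 lower (median 2.49). Retnla, Arg1 and Pdcd1lg2, the gene of the checkpoint ligand PD-L2, had the largest of these changes, 6.86, 6.70 and 5.91. Retnla passed the filter only with the LPS_NZM libraries, so its change is a description and its call carries no weight here either. Of 10 receptor, JAK and STAT genes 4 were higher and 3 lower (median 0.09), of 9 kinase and scaffold genes 2 were higher and 4 lower (median -0.10), and of 20 sensors and adaptors 5 were higher and 10 lower (median -0.17). Of 11 partners 5 were higher and 3 lower (median 0.06), and of 7 turnover and feedback genes 5 were higher and 1 lower (median 0.21). Without Control replicate 3 the counts were 1 higher and 16 lower for ISGF3 targets, 9 higher and 2 lower for IRF1 targets, 4 higher for IRF5 targets, and 13 higher and 1 lower for IRF4-linked genes. LPS and LPS_NZM are both set against the same Control libraries, and LPS also serves as the reference for NZM, so the values of these 3 comparisons are not independent of each other.

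**Figure D5:**
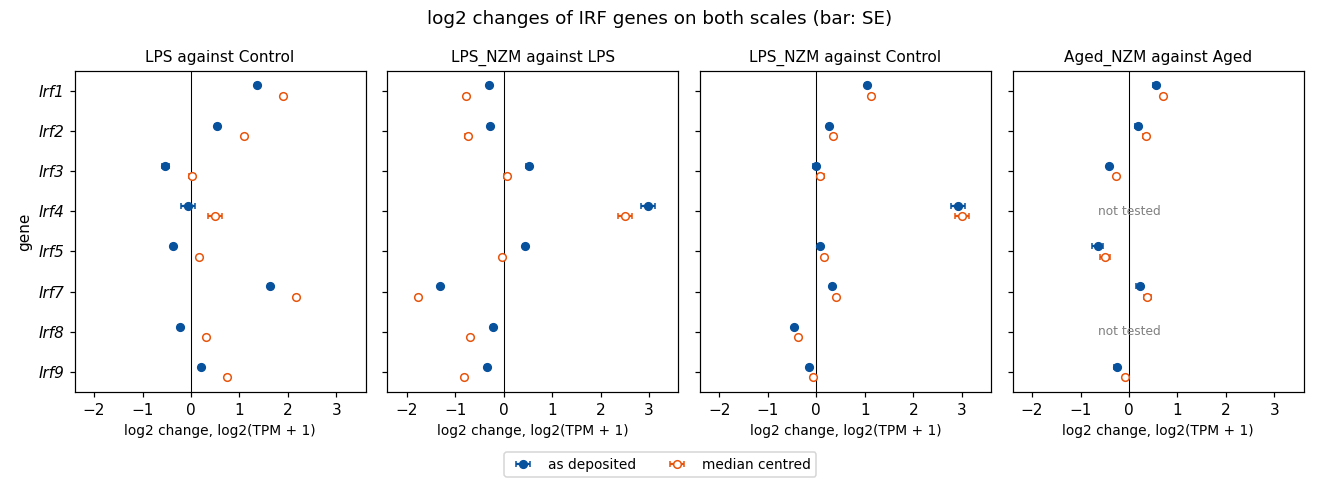
log2 change on the log2(TPM + 1) scale (x axis, bars are SE) of each IRF gene (y axis) in the 4 comparisons, as deposited (filled) and after median centring (open). Irf7 and Irf1 are right of 0 on both scales in LPS against Control, whereas Irf3, Irf5 and Irf8 lie left of 0 as deposited and right of it after centring.

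Aged_NZM against Aged is the comparison of NZM in BMSC that had received H2HO. Irf1 was higher with NZM and Irf3 and Irf5 were lower, on both scales. Irf2 and Irf7 were slightly higher, and Irf9 was lower as deposited but not called after centring. Irf4 and Irf8 were under 1 TPM in all 6 libraries and were not tested. All 6 tested genes were called, 3 higher and 3 lower, where 70.5% of all tested genes were called, 21.6% higher and 48.9% lower, so the share called is read against a high background. After centring 5 were called, 3 higher and 2 lower, where 66.5% of all genes were called, 31.1% higher and 35.4% lower.

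Irf1 had 40.4, 37.3 and 38.8 TPM in Aged_NZM, against 26.2, 25.3 and 27.2 TPM in Aged, 1.48 times as high and without overlap (log2 change 0.55, SE 0.05, adjusted p = 7.35e-06). Irf3 had 36.2, 36.5 and 37.1 TPM in Aged_NZM, against 48.1, 49.99 and 50.1 TPM in Aged (change on the log2 scale -0.42, SE 0.04, adjusted p = 9.9e-06, and -0.26 after centring). Irf1 and Irf3 changed places as the most abundant of the genes: Irf3 led in the Aged libraries, and Irf1 was above Irf3 in each Aged_NZM library. Irf5, at the low end of the scale, had 1.96, 2.09 and 1.62 TPM in Aged_NZM, against 3.77, 3.40 and 3.40 TPM in Aged (change on the log2 scale -0.65, SE 0.11, adjusted p = 0.000455, and -0.49 after centring).

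Irf9 had 26.1, 27.2 and 27.0 TPM in Aged_NZM, against 34.0, 31.0 and 31.2 TPM in Aged (change on the log2 scale -0.25, adjusted p = 0.00159), and after centring its change was -0.09 (adjusted p = 0.0797). Irf2 had 24.0, 24.2 and 27.6 TPM in Aged_NZM, against 23.2, 21.1 and 22.0 TPM in Aged (change on the log2 scale 0.18, adjusted p = 0.0287). Irf7 had 19.3, 18.4 and 17.7 TPM in Aged_NZM, against 16.5, 14.0 and 16.7 TPM in Aged (change on the log2 scale 0.22, adjusted p = 0.0232). Irf2 and Irf7 did not overlap between the groups, but their calls rested on single libraries. The adjusted p of Irf2 was 0.0933 without Aged replicate 2, 0.0634 without Aged replicate 3 and 0.109 without Aged_NZM replicate 3, where its change was 0.12. That of Irf7 was 0.0753 without Aged replicate 2, where its change was 0.14, 0.0758 without Aged_NZM replicate 1 and 0.0517 without Aged_NZM replicate 2. The log2 ratio of Irf1 to Irf2 averaged 0.60 in Aged_NZM and 0.24 in Aged, and that of Irf7 to Irf3 averaged -0.95 in Aged_NZM and -1.60 in Aged, both without overlap (two-sided exact permutation p = 0.1 for each).

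The 9 stromal markers summed to 5273 to 5413 TPM in Aged_NZM and 1549 to 1660 TPM in Aged, with all 8 tested markers higher, and the 11 macrophage markers summed to 107 to 120 TPM in Aged_NZM and 122 to 131 TPM in Aged. C1qb and C1qc, complement genes of macrophages, were at 0 in all BMSC libraries. The part of these shifts in the levels of the IRF genes was not tested.

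Targets of the IRFs were divided in BMSC, where the median of all tested genes was -0.18. Of all tested genes 21.6% were called higher and 48.9% lower as deposited, and 31.1% and 35.4% after centring. List counts near these shares are not read as results about a list. Of 12 tested IRF1 targets 7 rose and 4 fell (median 0.27), including the peptide transporter gene Tap2 at 32.1 ± 0.373 TPM in Aged_NZM and 15.2 ± 0.528 TPM in Aged, and the immunoproteasome gene Psmb8 at 5.71 ± 0.904 TPM in Aged_NZM and 2.70 ± 0.146 TPM in Aged. Of 18 tested ISGF3 targets 6 rose and 6 fell as deposited (median -0.01), and 8 were higher and 5 lower after centring (median 0.15), with Ifit3 at 0.79 and Oas1a at -0.72. The only IRF5 target tested was Il6, at 159.7 ± 9.66 TPM in Aged_NZM and 87.5 ± 2.05 TPM in Aged. Of 6 tested IRF4-linked genes 1 rose and 5 fell (median -0.50), the riser being Il4ra, the receptor chain for interleukin-4, at 45.9 ± 1.63 TPM in Aged_NZM and 23.3 ± 0.867 TPM in Aged. Mrc1, among those that fell, had 1.21 to 1.95 TPM in Aged and at most 0.14 TPM in Aged_NZM. It passed the filter through the Aged libraries only, so its call carries no weight. Kinases and scaffolds fell in 6 of 9 cases and rose in 1 as deposited (median -0.23), but after centring 2 were lower and 3 higher (median -0.07). Sensors and adaptors fell in 10 of 17 cases and rose in 3 as deposited (median -0.16), and 5 were lower and 5 higher after centring, and receptor, JAK and STAT genes rose in 5 of 10 and fell in 1 (median 0.12). Among partners 4 of 6 fell (median -0.28), and among turnover and feedback genes 4 of 7 fell (median -0.18), with none called higher in either list as deposited; after centring 1 partner was called higher and 3 genes of each list lower. No interferon gene passed the filter in BMSC.

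The NZM response of the cell types was compared directly by the difference of the LPS_NZM minus LPS change and the Aged_NZM minus Aged change in a fit of all 15 libraries. The responses differed for 6 of the 8 genes, 3 with a higher and 3 with a lower value in BMDM, where 72.0% of all tested genes differed, 54.8% higher and 17.2% lower in BMDM, and the median difference of all genes was 0.45. For Irf1, Irf2 and Irf7 the change was negative in BMDM and positive in BMSC, with differences of -0.86 (adjusted p = 1.22e-08), -0.46 (adjusted p = 0.000109) and -1.53 (adjusted p = 2.17e-10). For Irf3 and Irf5 the change as deposited was positive in BMDM and negative in BMSC, with differences of 0.95 (adjusted p = 4.96e-08) and 1.09 (adjusted p = 1.34e-08). After centring, the BMDM change of Irf3 was 0.06 and that of Irf5 was -0.03. Irf4 differed by 3.01 (adjusted p = 9.09e-10), which is nearly all its BMDM change because Irf4 was close to 0 in BMSC. Irf8 (-0.02, adjusted p = 0.802) and Irf9 (-0.10, adjusted p = 0.129) did not pass as deposited, and after centring both did, at -0.64 and -0.72, so that all 8 differed, where 68.6% of all genes did, 28.7% higher and 39.9% lower in BMDM. The pretreatment and the cell type changed together between the arms, so their shares in these differences cannot be told apart.

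For the 6 genes whose 5 group means spanned at least 2 on the log2(TPM + 1) scale, the genes with the most similar pattern were found among 13241 others by the root mean square difference over the 15 libraries, after centring each gene on its own mean. Nearest to Irf7 were Slc13a3 (0.158), Scarf1 (0.198) and Tmem229b (0.227), and Scarf1 averaged 39.7 TPM in LPS_NZM, 113 TPM in LPS and 37.0 TPM in Control. Nearest to Irf4 were Ceacam19 (0.229), Lipn (0.334) and Rab19 (0.351), and Ceacam19 averaged 12.5 TPM in LPS_NZM, 1.10 TPM in LPS and 0.48 TPM in Control. The pattern of Irf1 was nearest to Tgm2 (0.222), Clic4 (0.242) and B4galt5 (0.254), and that of Irf2 to Lipe (0.0956), Diaph2 (0.126) and P2rx4 (0.131). Irf5 was nearest to Itgb2 (0.182), Cd68 (0.191) and Lmo2 (0.238), and near Irf8 were Adap2 (0.147) and Arhgap30 (0.175), all 5 being near 0 or low in BMSC. These distances describe these libraries, which share the contrast between cell types, and carry no test.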

How the data were processed

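The values deposited by the authors are TPM per gene in 15 libraries, 3 in each of 5 groups named in the labels. Per the submitters' processing notes, fastp, HISAT2, StringTie and RSEM were used with genome build GRCm39; versions are not given in the sources used here. TPM keep no depth, so no counting interval is given. Symbols came from a name table of an older build, which matched 52072 of 56979 identifiers. No 2 libraries held identical values.

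From the deposited TPM, log2(TPM + 1) was analysed with limma 3.58.1 in R 4.3.3 (lmFit, then eBayes with trend set, two-sided tests), over genes with a TPM of at least 1 in at least 3 libraries of the fit. The 9 BMDM libraries formed a fit, the 6 BMSC libraries another, and all 15 tested the difference of the NZM responses. Benjamini-Hochberg adjustment ran over all tested genes (14486 in BMDM, 13865 in BMSC and 16696 for the difference), and a gene was called at an adjusted p under 0.05. Log ratios of 2 genes were compared by exact permutation with scipy 1.17.1, and figures were drawn with matplotlib 3.10.9 in Python 3.11.15. Promoter windows were from RefSeq, GRCm38.p6. The procedure was tested on simulated data.

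The IRF genes and the pathway and marker lists were chosen with earlier results of these data known. The text names all 8 genes, up to 3 called genes with the largest changes per list and comparison, Stat2, Ifnb1, Tbk1, Ikbke, Spi1 and Usp18, and up to 3 genes of similar pattern per IRF gene; a few genes that this rule covers are not reported here. Genes outside this rule were chosen after their values were seen: Ciita and Ccl22 and Il4ra where they are exceptions in their list, Il23a for its filter, and markers of other cell types. The alternatives tried were median centring, quantile normalization, a pseudocount of 0.1, a filter at 5 TPM or none, no trend, a replicate block, other sets of libraries in the fit, and leaving out each library in turn. Leaving out Control replicate 3 for the list counts was added after seeing the data.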

Additional observations from a re-analysis of the deposited data

Results flagged for a closer look

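The change with NZM differed between BMDM (LPS_NZM against LPS) and BMSC (Aged_NZM against Aged) for 6 of the 8 IRF genes, by a test of the difference itself in limma over all 15 libraries. In the same test 72.0% of all tested genes differed, so the count of IRF genes lies near that share. The difference of the log2 changes, BMDM minus BMSC, was -1.53 for Irf7, -0.86 for Irf1 and -0.46 for Irf2, each of which was lower with NZM in BMDM and higher with NZM in BMSC. It was 0.95 for Irf3 and 1.09 for Irf5, which as deposited were higher with NZM in BMDM and lower with NZM in BMSC, although after median centring neither was called in BMDM. For Irf4 it was 3.01, with 14.5 TPM in LPS_NZM, 0.970 TPM in LPS, 0.0267 TPM in Aged_NZM and 0.0567 TPM in Aged on average. All 6 differences had the same sign and stayed past the threshold under each of the 22 alternatives run for them. Pretreatment differed between the cell types, so that its part cannot be told apart from that of the cell type.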

How the results depend on the processing

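The scale mattered most. Median centring turned 5 log2 changes round: in LPS against Control those of Irf3 (to 0.019), Irf4 (to 0.49), Irf5 (to 0.17) and Irf8 (to 0.32), and in LPS_NZM against LPS that of Irf5 (to -0.025). A pseudocount of 0.1 turned the difference of the NZM responses of Irf8 to 0.89 (adjusted p = 0.00338), a value that rests on BMSC levels of at most 0.26 TPM. Quantile normalization turned round the uncalled changes of Irf4 in LPS against Control (to 0.22) and, in LPS_NZM against Control, of Irf3 (to -0.018) and Irf5 (to -0.027), none of them called. It kept the deposited direction and call of Irf3, Irf5 and Irf8 in LPS against Control. The same held for Irf3 and Irf5 in LPS_NZM against LPS. On leaving out single libraries, 3 uncalled values close to 0 changed sign without being called: Irf4 in LPS against Control (-0.22 to 0.087), Irf3 in LPS_NZM against Control (-0.057 to 0.072) and the difference of the responses of Irf8 (-0.060 to 0.0064). Of 691 recomputed log2 changes of IRF genes, 658 kept their direction and their side of the threshold, and 16 turned round; in all alternatives run, 7 IRF genes were called in LPS against Control, 6 to 8 in LPS_NZM against LPS, 6 in LPS_NZM against Control, 4 to 7 in Aged_NZM against Aged and 6 to 8 for the difference of the responses. With Aged_NZM against Aged, Irf2 and Irf7 also lost their calls without the filter on low values (adjusted p = 0.0726 and 0.0663), and the lowest count, 4, came without Aged replicate 2. The cause was not tested. The log2 ratios of Irf4 to Irf5 and of Irf4 to Irf8 depend on the pseudocount, with LPS_NZM minus LPS differences of 3.33 and 3.99 at 0.1.

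Deviations of same-numbered libraries from their group means were weakly correlated (-0.076 to 0.199 in 9 BMDM pairs and -0.041 to 0.015 in 3 BMSC pairs). The labels do not say whether the numbers pair libraries, and with 3 libraries a group these values cannot settle it. With a replicate block the call of none of 38 log2 changes moved, and 7, 8, 6 and 6 IRF genes were called in the 4 comparisons in the order of the report. Without sequencing depth, levels under about 1 TPM, such as Irf4 and Irf8 in BMSC, cannot be given a limit.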
